A study of Mus musculus with 9 samples.

Results

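The C/EBP and KLF transcription factors described here are 8 genes, Cebpa, Cebpb, Cebpd, Cebpe, Klf2, Klf4, Klf6 and Klf13, read from a table of 46517 genes. They were taken by symbol, each symbol matched 1 row, and all 8 passed the filter on low counts that left 14059 genes for testing. The samples were 9 RNA sequencing libraries of primary monocytes that were obtained in vitro from wild-type C57BL/6 mice, with 3 libraries each (numbered 0, 1 and 2) of patrolling monocytes (pMo), intermediate monocytes (intMo) and conventional monocytes (cMo). No treatment, mutant allele or age is named in the labels, so the labels set the groups apart by subset alone. The design text of the series names cMo in 2 places and pMo in none, and the subsets here follow the labels of the samples. The series title places the pMo in bone marrow cultures on OP9-DLL1, stromal cells displaying the Notch ligand Delta-like 1. The sources used here give neither the sort gates nor whether libraries of a subset came from separate cultures or animals, so p-values measure only the spread between these libraries.

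C/EBP proteins are basic leucine zipper factors that bind DNA as pairs and drive successive steps of myeloid differentiation. In mice, C/EBP alpha is needed for the step to granulocyte and monocyte progenitors, C/EBP epsilon for the last steps of granulocyte maturation, and C/EBP beta for the survival of patrolling monocytes. C/EBP delta is induced in inflammation and the acute phase response. KLF proteins bind GC-rich and CACCC sequences through zinc fingers at the carboxyl end. In mice, KLF4 is needed for monocyte formation, KLF2 keeps leukocytes quiescent and acts on the gene of NR4A1, a nuclear receptor on which patrolling monocytes depend, KLF6 takes part in macrophage activation, and KLF13 was described as an activator of CCL5 in human T cells.

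All 8 genes are annotated as protein coding in GRCm38 (GENCODE M21, coordinates counted from 1). Cebpa (ENSMUSG00000034957.9) lies on chromosome 7 from 35119293 to 35121928, Cebpb (ENSMUSG00000056501.3) on chromosome 2 from 167688915 to 167690418, Cebpd (ENSMUSG00000071637.4) on chromosome 16 from 15887286 to 15891031 and Cebpe (ENSMUSG00000052435.6) on chromosome 14 from 54710360 to 54712174. Klf2 (ENSMUSG00000055148.7) lies on chromosome 8 from 72319033 to 72321656, Klf4 (ENSMUSG00000003032.8) on chromosome 4 from 55527143 to 55532466, Klf6 (ENSMUSG00000000078.6) on chromosome 13 from 5861482 to 5870394 and Klf13 (ENSMUSG00000052040.9) on chromosome 7 from 63886351 to 63938915. Exons of Tmem189 overlap 312 bases of Cebpb and exons of Spidr overlap 562 bases of Cebpd on the opposite strand. The sources used here do not give the strand setting of the counting, so reads in those stretches are uncertain.

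The promoters of Cebpb, Klf2 and Klf4 are shown, the 3 genes that were called lower in intMo than in both other subsets, as described below. The call of Cebpb against cMo was lost under 13 of 17 other settings, and that of Klf4 against pMo under 4 of 18. The mean levels of Cebpa and Klf13 were also lowest in intMo, without a call. The sequences are from RefSeq (GRCm38.p6, 5′ to 3′ on the strand of the gene) and end before the transcript start, that of Klf2 before the first exon of GENCODE M21. Capitals mark the core of the cyclic AMP response element (TGACG, or CGTCA on the other strand) and, in Klf2, a match to the MEF2 motif (CTA, any 4 bases, TAG). The windows are chr2:167688665-167688914 (plus strand) for Cebpb, chr8:72318812-72319032 (plus strand) for Klf2 and chr4:55532476-55532725 (minus strand) for Klf4.
Cebpb: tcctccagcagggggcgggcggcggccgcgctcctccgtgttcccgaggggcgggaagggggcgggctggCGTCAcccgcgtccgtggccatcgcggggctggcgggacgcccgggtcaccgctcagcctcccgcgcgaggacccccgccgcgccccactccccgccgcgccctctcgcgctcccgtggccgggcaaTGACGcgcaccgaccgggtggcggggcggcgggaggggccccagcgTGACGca
Klf2: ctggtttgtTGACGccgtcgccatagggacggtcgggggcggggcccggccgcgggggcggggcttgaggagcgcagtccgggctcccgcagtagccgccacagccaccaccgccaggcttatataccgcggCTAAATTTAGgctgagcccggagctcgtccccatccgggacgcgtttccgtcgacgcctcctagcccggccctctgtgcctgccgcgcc
Klf4: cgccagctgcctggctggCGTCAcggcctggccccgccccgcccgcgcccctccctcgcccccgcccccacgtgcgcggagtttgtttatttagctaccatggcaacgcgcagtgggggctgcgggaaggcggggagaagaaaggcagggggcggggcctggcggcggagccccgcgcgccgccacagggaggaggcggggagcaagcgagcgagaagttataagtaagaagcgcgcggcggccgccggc
Both strands of the 250 bases before the RefSeq start were searched. The Cebpb window held 3 matches to TGACG, at 180, 53 and 7 bases before the start, and the Klf2 and Klf4 windows held 1 each, at 241 and 232 bases. Of 32851 promoter windows in the RefSeq table, 17.8% held this core. The MEF2 match in Klf2 began 118 bases before the start, did not overlap the TGACG match, and 3.2% of all windows held this motif. Promoters of 6 of the 8 genes were in the table. Besides the 3 shown, that of Klf13 had 1 TGACG match and those of Cebpa and Klf6 had 0. None of the 6 windows held the C/EBP motif TTNNGNAA, which 36.8% of all windows held. A match describes these letters only.

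Libraries held between 18455116 and 29985684 estimated counts. The cells were checked against lists of patrolling and conventional monocyte markers, by the level (CPM, the count relative to the TMM-scaled library size) summed over each list. No list of intMo markers was used, so that label was not checked. Patrolling monocyte markers summed to 10633 to 13002 CPM in pMo, 3926 to 4704 CPM in intMo and 1243 to 1554 CPM in cMo, and conventional monocyte markers to 634 to 1164, 1119 to 2550 and 5830 to 10567 CPM in the same order. Of the 12 patrolling markers, edgeR called 8 higher and 1 lower in intMo against cMo, where 24.4% of all genes were called. The 1 that fell was Spn, at a mean of 551 CPM in pMo, 99.2 CPM in intMo and 277 CPM in cMo. Library 0 stood apart in every subset: its correlation with libraries 1 and 2 was 0.951 to 0.975 (log2 CPM), against 0.986 to 0.99 between libraries 1 and 2. In these bulk samples, fewer cells of a type and less RNA per cell cannot be told apart.

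**Figure D1:**
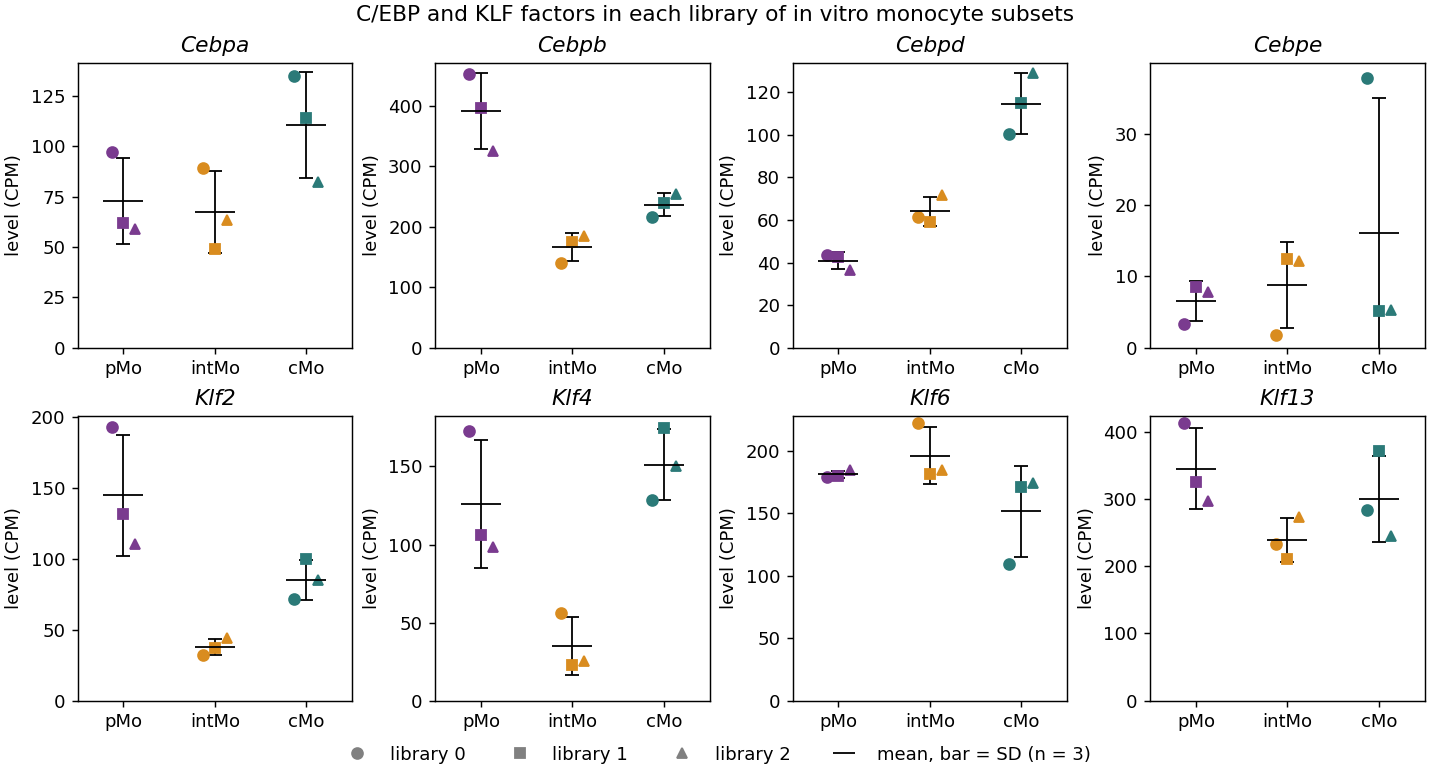
Level (CPM) of each C/EBP and KLF factor by subset, with 1 point per library (circle 0, square 1, triangle 2), the mean as a line and the SD as a bar (n = 3). The intMo libraries lie below all others for Cebpb, Klf2 and Klf4. Cebpd is lowest in pMo and highest in cMo, and Cebpe is high in cMo library 0 alone.

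Cebpb was the C/EBP gene that stood highest in pMo. Its level was 452, 396 and 325 CPM in pMo libraries 0, 1 and 2, 139.9, 175 and 185 CPM in those of intMo, and 217, 239 and 255 CPM in those of cMo. No library of a subset overlapped another subset, in the order pMo, cMo, intMo. Cebpb rose in pMo against intMo (log2 fold change 1.23 with SE 0.16, written 1.23 ± 0.16 hereafter, adjusted p = 0.0038, edgeR), and in pMo against cMo (log2 0.72 ± 0.16, adjusted p = 0.00841, edgeR). It fell in intMo against cMo (log2 -0.51 ± 0.16, adjusted p = 0.0474, edgeR), and this last call was lost under 13 of 17 other settings, with adjusted p up to 0.148. Per kilobase of merged exons, Cebpb had the highest mean level of the 8 factors in each subset, with 260.2 ± 42.3 CPM per kb in pMo, 111 ± 15.7 CPM per kb in intMo and 157 ± 12.6 CPM per kb in cMo (SD, n = 3).

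Cebpd went the other way, with its lowest level in pMo. It had 43.6, 42.7 and 36.5 CPM in the pMo libraries, 61.5, 59.0 and 71.6 CPM in those of intMo, and 100.2, 115 and 129 CPM in those of cMo. The 3 subsets did not overlap, and both steps of the order differed by the test. Cebpd fell in pMo against cMo (log2 -1.49 ± 0.14, adjusted p = 0.00014, edgeR) and in intMo against cMo (log2 -0.84 ± 0.14, adjusted p = 0.00325, edgeR), calls that held under all 17 other settings each. In pMo against intMo it fell (log2 -0.65 ± 0.14, adjusted p = 0.0321, edgeR), a call lost when any 1 of the pMo libraries was left out, and likewise for intMo 1, intMo 2 and cMo 1 (adjusted p up to 0.151), while the log2 change stayed between -0.72 and -0.55.

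Cebpa was not called in any comparison. Its level was 97.4, 62.0 and 58.8 CPM in pMo, 89.5, 49.1 and 63.4 CPM in intMo, and 135, 114 and 82.4 CPM in cMo. Library 0 was the highest of each subset, and the lowest cMo library lay under the library 0 values of pMo and intMo. The log2 fold change was -0.60 ± 0.28 in pMo against cMo (adjusted p = 0.129, edgeR), -0.71 ± 0.28 in intMo against cMo (adjusted p = 0.0943, edgeR) and 0.11 ± 0.28 in pMo against intMo (adjusted p = 0.897, edgeR). With libraries 1 and 2 alone, Cebpa was called lower in pMo against cMo (log2 -0.70, adjusted p = 0.0195, edgeR) and in intMo against cMo (log2 -0.80, adjusted p = 0.0149, edgeR). The ratio of Cebpb to Cebpa counts within a library was 4.64, 6.39 and 5.53 in pMo, 1.56, 3.55 and 2.92 in intMo and 1.61, 2.09 and 3.09 in cMo, so the pMo libraries lay above all others and those of intMo and cMo overlapped.

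Cebpe was the scarcest member and no comparison called it. It had 3.33, 8.47 and 7.87 CPM in pMo, 1.77, 12.4 and 12.2 CPM in intMo, and 37.9, 5.20 and 5.26 CPM in cMo. The cMo value rests on library 0. The log2 fold change of pMo against cMo was -1.30 ± 0.90 (adjusted p = 0.3, edgeR) and that of intMo against cMo -0.86 ± 0.89 (adjusted p = 0.513, edgeR). That of pMo against intMo was -0.43 ± 0.89 (adjusted p = 0.867, edgeR). Without cMo 0 the pMo and intMo differences from cMo changed direction (log2 0.32 and 0.76), and with libraries 1 and 2 alone Cebpe was called higher in pMo against cMo (log2 0.65, adjusted p = 0.00861, edgeR) and in intMo against cMo (log2 1.24, adjusted p = 0.000446, edgeR). In that fit pMo was called lower than intMo (log2 -0.59, adjusted p = 0.0226, edgeR).

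The granule gene Ltf followed the level of Cebpe by library. Kit, a progenitor marker in the same list, did not do so in pMo and intMo, and Cd34, another, did not in pMo. The 14 listed granulocyte and progenitor genes summed to 628, 2664 and 2727 CPM in pMo, 529, 4308 and 4035 CPM in intMo, and 13216, 2387 and 2687 CPM in cMo. None of the 14 was at 0 in any library. Ltf, the granule protein lactoferrin, had 101, 364 and 384 CPM in pMo, 75.8, 445 and 419 CPM in intMo, and 1350.3, 131 and 153 CPM in cMo. Kit was highest in library 0 of every subset, with 13.4, 5.60 and 5.77 CPM in pMo, 26.3, 13.8 and 17.1 CPM in intMo, and 29.9, 6.26 and 6.98 CPM in cMo. Cd34 had 21.9, 13.3 and 12.9 CPM in pMo. Mpo and Ctsg were about level over the pMo libraries, with 35.1, 34.8 and 41.7 CPM of Mpo and 4.48, 4.83 and 5.03 CPM of Ctsg. The genes whose log2 CPM followed Cebpe most closely over the 9 libraries were Itgb2l, an integrin-like gene (r = 0.992), and Lcn2, the granule protein lipocalin 2 (r = 0.984), a description of 9 libraries of 3 subsets. Both were named for this likeness, so it was fixed by that choice. The part of such cells in the Cebpe level was not tested.

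**Figure D2:**
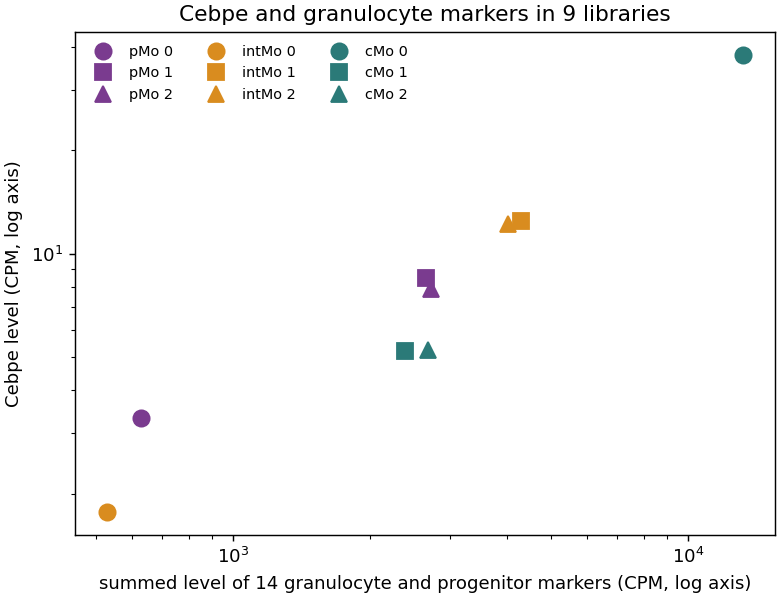
Cebpe level (CPM, log axis) against the summed level of 14 granulocyte and progenitor markers (CPM, log axis) in each of the 9 libraries, coloured by subset. Library 0 of pMo and of intMo lies lowest and cMo 0 highest on both axes.

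Of the 4 KLF factors, Klf2 and Klf4 had the largest differences, and both were lowest in intMo. Klf2 had 193, 132 and 111 CPM in pMo, 32.3, 37.3 and 44.0 CPM in intMo, and 71.6, 99.9 and 85.1 CPM in cMo. Its subsets did not overlap, with pMo highest and intMo lowest. Klf2 rose in pMo against intMo (log2 1.94 ± 0.23, adjusted p = 0.00257, edgeR), which is 3.83-fold, and fell in intMo against cMo (log2 -1.17 ± 0.22, adjusted p = 0.00619, edgeR). Both calls held under every other setting tried. Klf2 was also higher in pMo than in cMo (log2 0.76 ± 0.22, adjusted p = 0.0266, edgeR). That call was lost without pMo 0, pMo 1, cMo 0 or cMo 2 (adjusted p up to 0.0906), and with libraries 1 and 2 alone the log2 change was 0.39 (adjusted p = 0.0673, edgeR).

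Klf4 had 173, 106 and 98.4 CPM in pMo, 56.2, 22.5 and 25.6 CPM in intMo, and 129, 174 and 150.2 CPM in cMo. The intMo libraries lay below all others, while pMo and cMo overlapped. Klf4 fell in intMo against cMo (log2 -2.12 ± 0.37, adjusted p = 0.00401, edgeR), a call that held under all 17 other settings. It rose in pMo against intMo (log2 1.86 ± 0.36, adjusted p = 0.021, edgeR), a 3.63-fold difference. The call against intMo was lost without pMo 0, pMo 1, intMo 1 or intMo 2 (adjusted p up to 0.0858), and its log2 change stayed between 1.57 and 2.39. Between pMo and cMo the log2 fold change was -0.26 ± 0.35 (adjusted p = 0.595, edgeR), and with libraries 1 and 2 alone Klf4 was called lower in pMo (log2 -0.66, adjusted p = 0.00429, edgeR).

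The ratio of Klf2 to Klf4 counts within a library was 1.12, 1.24 and 1.12 in pMo, 0.575, 1.66 and 1.72 in intMo and 0.556, 0.573 and 0.566 in cMo. The cMo ratios lay within a narrow band, the pMo ratios were all higher than these, and intMo library 0 lay apart from the other intMo libraries. Over the 9 libraries, log2 CPM of Klf2 correlated at 0.964 with that of Cebpb, 0.848 with that of Klf13 and 0.794 with that of Klf4, as a description.

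Klf6 and Klf13 were not called in any comparison. Klf6 had 179, 179 and 184 CPM in pMo, 222, 182 and 184 CPM in intMo, and 109, 171 and 174 CPM in cMo. Libraries 1 and 2 of all subsets lay close together, and cMo 0 was the lowest and intMo 0 the highest library. Its log2 fold change was 0.26 ± 0.18 in pMo against cMo (adjusted p = 0.305, edgeR), 0.37 ± 0.18 in intMo against cMo (adjusted p = 0.166, edgeR) and -0.11 ± 0.18 in pMo against intMo (adjusted p = 0.82, edgeR). Klf13 had 413, 325 and 298 CPM in pMo, 233, 210.1 and 274 CPM in intMo, and 283, 371 and 245 CPM in cMo. Each pMo library lay above each intMo library, with a log2 fold change of 0.53 ± 0.19 (adjusted p = 0.174, edgeR). A fit to the 6 pMo and intMo libraries with the library number as a block, named the paired fit below, called Klf13 higher in pMo (log2 0.51, adjusted p = 0.0333, edgeR). Its pairing rests on library numbers alone, and the values did not tell number 1 from 2. It was added after the data were seen. Against cMo, where the libraries overlapped, the log2 fold change of Klf13 was 0.20 ± 0.19 for pMo (adjusted p = 0.451, edgeR) and -0.33 ± 0.19 for intMo (adjusted p = 0.246, edgeR).

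**Figure D3:**
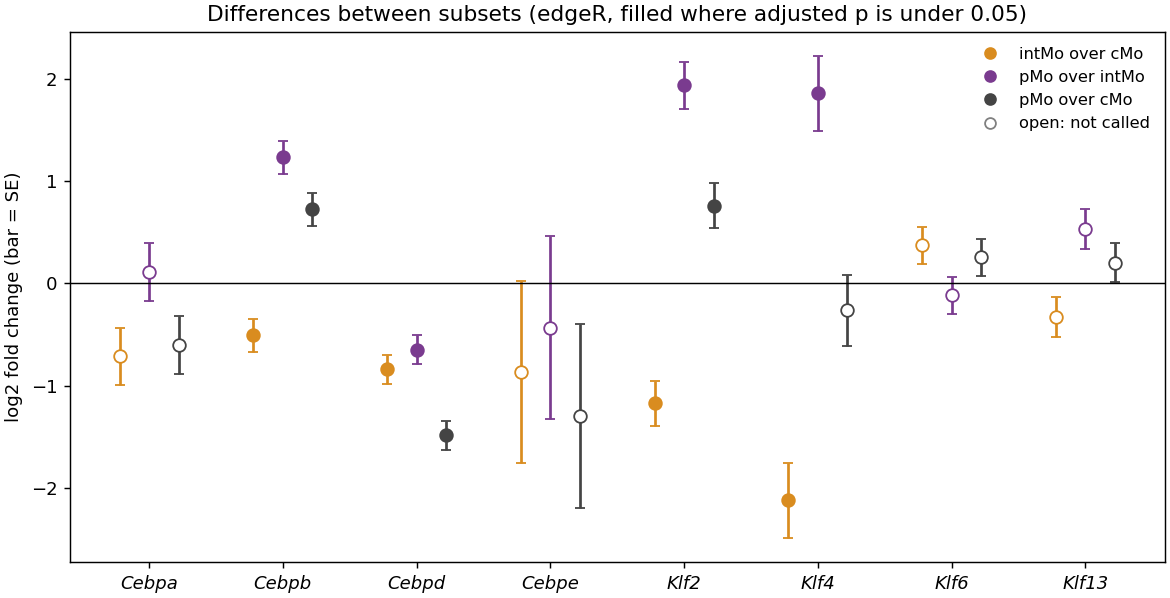
Log2 fold change of each factor in the 3 comparisons, with the SE as a bar and filled points where the edgeR adjusted p was under 0.05. Klf2 and Klf4 lie below 0 for intMo over cMo and above 0 for pMo over intMo, while Cebpd lies below 0 in all 3.

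Counted over the 8 factors, pMo against intMo had 3 that rose (Cebpb, Klf2 and Klf4) and 1 that fell (Cebpd), where 4.99% of all tested genes were called, 3.29% higher and 1.69% lower. Libraries of pMo and intMo did not overlap for 5 of the 8, and for 27.7% of all genes. The median log2 fold change of the 8 was 0.32, against -0.02 over all genes. In the paired fit, 4 factors rose and 1 fell, and 2589 genes were called in place of 701.

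In intMo against cMo, Cebpb, Cebpd, Klf2 and Klf4 fell and the other 4 were not called, with 24.4% of all genes called, 14% higher and 10.4% lower. The Cebpb call among these was lost under 13 of 17 other settings. Libraries did not overlap for 5 of the 8 and for 41.3% of all genes, and the median log2 fold change was -0.78, against -0.01 over all genes. In pMo against cMo, 2 factors rose (Cebpb and Klf2), 1 fell (Cebpd) and 5 were not called, with 33.1% of all genes called, so the count was near the background. Libraries did not overlap for 4 of the 8 and for 49.5% of all genes, and the median was -0.03, against 0.03 over all genes. The 3 comparisons share libraries, so their values are not independent of each other.

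**Figure D4:**
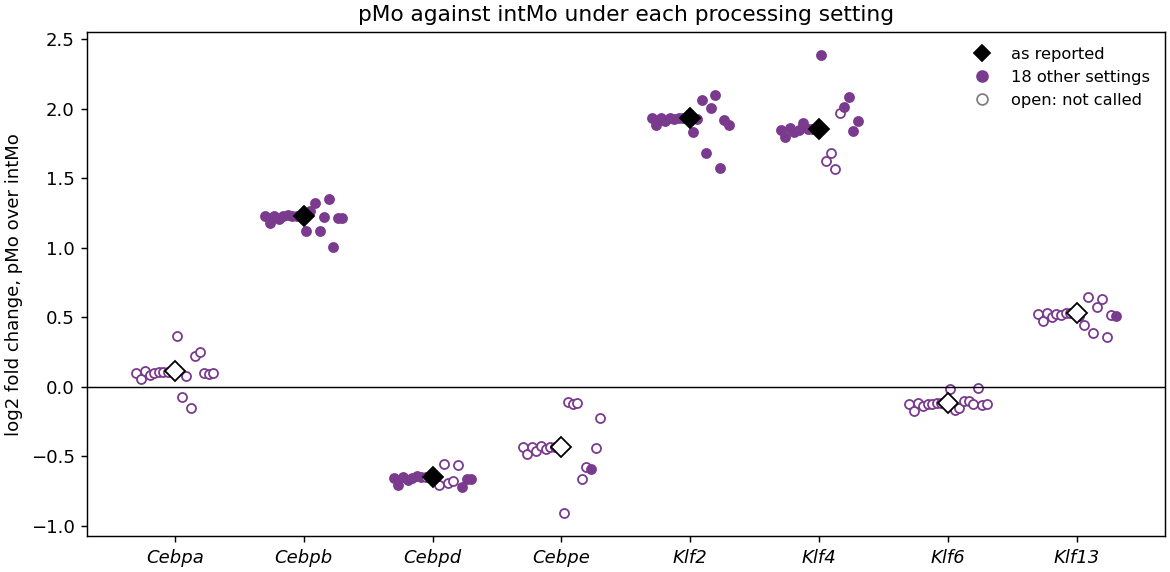
Log2 fold change of each factor in pMo over intMo as reported (black diamonds) and under 18 other settings (purple circles), open where not called. Cebpb and Klf2 stay filled throughout, and the calls of Klf4 and Cebpd open under some settings with the sign kept.

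Other cell types and handling were followed with marker lists. Immediate early and heat shock genes, which are induced when cells are handled, summed to 4226, 2178 and 2045 CPM in pMo, 4888, 2066 and 2226 CPM in intMo, and 873, 999 and 1007 CPM in cMo. Of the 15 genes edgeR called 0 in pMo against intMo, with 2 at an unadjusted p under 0.05 and 1 called by DESeq2, and the paired fit called 1 higher and 3 lower. In intMo against cMo 9 rose and 1 fell, where 24.4% of all genes were called and Klf2 and Klf4 fell. Within subsets, library 0 had the highest sum and the highest Klf4 in pMo and intMo, and the lowest of both in cMo. Klf2 followed the sum in this way in pMo and cMo, but was lowest in library 0 of intMo. Stromal markers summed to 434, 295 and 250.4 CPM in pMo, 799, 295 and 316 CPM in intMo, and 20.9, 11.6 and 11.8 CPM in cMo, with Dcn, the matrix proteoglycan decorin, at 0 in every library. Of 10 tested stromal genes, 0 rose, 1 fell and 9 were not called in pMo against intMo, and all 10 rose in each comparison with cMo. Markers of dendritic cells and macrophages summed to 1928, 1323 and 1290 CPM in pMo, 5107, 2953 and 2728 CPM in intMo, and 266, 572 and 638 CPM in cMo. The sum was highest in intMo, where Klf2, Klf4 and Cebpb were lowest. Within pMo and intMo, library 0 had the highest sum and the highest Klf4, and within cMo the lowest of both. Klf2 and Cebpb were highest in library 0 of pMo and lowest in library 0 of intMo and of cMo. The macrophage genes C1qb, Adgre1 and C1qa made up most of the dendritic cell and macrophage sum. The means of the dendritic cell genes Siglech, Clec9a and Xcr1 were also highest in intMo, at 35.0, 7.67 and 4.56 CPM. Those of Zbtb46 and Ccr7 were highest in pMo and that of Flt3 in cMo. Vsig4 averaged 0.138 CPM in pMo and 0.118 CPM in intMo and was not tested. Of 11 tested genes of this list, 3 fell and 8 were not called in pMo against intMo, and 9 fell in the paired fit. Of all genes 4.99% were called in that comparison, and the paired fit called 2589 genes in place of 701. The part of feeder cells, of such other cells and of handling in the level of the 8 factors was not tested. Lymphoid markers summed to at most 95.4 CPM, in intMo library 0, and erythroid, mast cell and eosinophil markers to at most 13.9 CPM in any library. Of 7 tested lymphoid genes, 4 rose in intMo against cMo and 3 in pMo against cMo, where 24.4% and 33.1% of all genes were called. In pMo against intMo 1 rose and 1 fell, where 4.99% of all genes were called. The part of these cells in the level of the 8 factors was not tested either.

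The list of further C/EBP genes held Cebpg, Ddit3 and Cebpz, all tested. Cebpz shares the name but encodes a CCAAT-binding protein without the leucine zipper. In pMo against cMo, where 17.2% of all genes were called higher and 15.9% lower, Ddit3, the stress-induced C/EBP homologous protein CHOP, rose (log2 0.85 ± 0.18, adjusted p = 0.00599, edgeR). Cebpg, a C/EBP that lacks an activation domain, fell (log2 -0.74 ± 0.16, adjusted p = 0.00699, edgeR). Cebpz, the most abundant of the 3, was at 58.0, 62.9 and 72.3 CPM in pMo and 60.6, 63.1 and 71.2 CPM in cMo, and was not called. Of these 3 listed genes, edgeR and DESeq2 each called 0 in pMo against intMo, with 2 at an unadjusted p under 0.05, and the paired fit called Ddit3 higher (log2 0.53, adjusted p = 0.0188, edgeR).

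Of 13 other KLF genes 8 were tested, and in pMo against cMo 2 rose, 1 fell and 5 were not called, with a median log2 fold change of -0.15, where 33.1% of all genes were called. Klf3, a repressor and the most abundant of them, had 183, 173 and 169 CPM in pMo and 97.6, 128 and 118 CPM in cMo, and rose (log2 0.61 ± 0.13, adjusted p = 0.0059, edgeR). Klf7 rose (log2 0.69 ± 0.22, adjusted p = 0.0377, edgeR), a call lost when any 1 of the pMo libraries was left out, and likewise for cMo 1, cMo 2 and intMo 2 (adjusted p up to 0.11). Klf8, a low gene at 0.868 CPM on average in pMo and 3.73 CPM in cMo, fell (log2 -2.10 ± 0.46, adjusted p = 0.00788, edgeR). For pMo against intMo, edgeR and DESeq2 each called 0 of the 8, with 3 at an unadjusted p under 0.05 and a median log2 fold change of 0.19. Of all genes, edgeR called 4.99% in that comparison, and the paired fit called 2589 genes in place of 701. The paired fit called 3 of the 8 higher, among them Klf3 (log2 0.37, adjusted p = 0.0316, edgeR). In intMo against cMo 1 rose and 2 fell, with a median of -0.50, where 24.4% of all genes were called.

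Among 13 partners and regulators of C/EBP factors, 4 rose, 1 fell and 8 were not called in pMo against cMo, with a median log2 fold change of 0.06. That count lies near the 33.1% called among all genes. Between intMo and cMo 2 rose and 1 fell in intMo, where 24.4% of all genes were called. Between pMo and intMo 1 rose in pMo, where 4.99% of all genes were called. In the paired fit, which called 2589 genes in place of 701, 2 of the 13 rose and 2 fell. Trib1, a pseudokinase that brings C/EBP alpha to the ubiquitin ligase COP1, had 106, 114 and 110.5 CPM in pMo, 72.9, 63.1 and 68.2 CPM in intMo, and 6.41, 16.5 and 12.2 CPM in cMo. Its libraries did not overlap between subsets. In pMo against intMo the log2 fold change was 0.70 ± 0.27 (adjusted p = 0.2, edgeR), called in the paired fit (log2 0.68, adjusted p = 0.00196, edgeR). Trib1 rose in pMo against cMo (log2 3.24 ± 0.29, adjusted p = 0.000108, edgeR) and in intMo against cMo (log2 2.54 ± 0.29, adjusted p = 0.000511, edgeR). Trib2, its relative, had 72 counts in pMo, 51 in intMo and 0 in cMo, which puts it at least 26.6-fold higher in pMo and at least 19.7-fold higher in intMo than in cMo (floor of 3 counts over the subset). Spi1, which encodes PU.1, the myeloid factor that works beside C/EBP proteins, had 682, 665 and 658 CPM in pMo, 460.4, 416 and 441 CPM in intMo, and 451, 413 and 421 CPM in cMo. It rose in pMo against intMo (log2 0.61 ± 0.11, adjusted p = 0.013, edgeR), a call lost without intMo 1, intMo 2, pMo 1 or pMo 2 (adjusted p up to 0.068), and against cMo (log2 0.64 ± 0.11, adjusted p = 0.00203, edgeR). Myb, a factor of immature cells, fell in pMo against cMo (log2 -4.45 ± 0.51, adjusted p = 0.000385, edgeR), at 2.83, 3.08 and 3.63 CPM in pMo and 119.6, 43.2 and 45.2 CPM in cMo, and the log2 change was -3.80 without cMo 0.

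The 16 listed target genes of C/EBP factors in myeloid cells split in pMo against cMo, where 4 rose, 5 fell and 7 were not called (median log2 -0.79), with 33.1% of all genes called. Those that fell included the azurophil granule genes Prtn3 (log2 -4.85 ± 0.79), Mpo (log2 -4.83 ± 0.89) and Elane (log2 -4.55 ± 0.79, edgeR adjusted p = 0.00201 to 0.00359). Library cMo 0 was the highest for all 3, with 2335 CPM of Mpo against 460.4 and 378 CPM in the other cMo libraries, and without it the log2 changes were -4.01 for Prtn3, -3.50 for Mpo and -3.72 for Elane. Elane, Mpo, Prtn3, Ltf, Lcn2, Camp and Ngp are also in the granulocyte list. Lyz2, the myeloid lysozyme gene and the most abundant target, fell (log2 -1.27 ± 0.40, adjusted p = 0.0381, edgeR), and its call was lost when any 1 of the pMo libraries was left out, and likewise for cMo 1, cMo 2 and intMo 2, and with no filter on low counts (adjusted p up to 0.125). Those that rose included Nr4a1 (log2 4.28 ± 0.20), Ptgs2, the inducible prostaglandin synthase (log2 3.76 ± 0.47), and Cd14, the lipopolysaccharide receptor (log2 1.69 ± 0.36, edgeR adjusted p = 0.00696 for the last). In pMo against intMo, where 4.99% of all genes were called, 1 of the 16 was called, Nr4a1. The paired fit, which called 2589 genes in place of 701, called 2 of the 16 higher and 2 lower. Between intMo and cMo, 4 of the 16 rose in intMo and 6 fell (median log2 -0.73), with 24.4% of all genes called.

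Of 12 listed target genes of KLF factors 11 were tested, and in pMo against cMo 7 rose, 1 fell and 3 were not called (median log2 0.91, against 0.03 over all genes), where 33.1% of all genes were called. Ccl5, the chemokine linked to KLF13, rose (log2 5.11 ± 0.55, adjusted p = 0.000296, edgeR) and Tgfbr1, a receptor gene linked to KLF6, rose too (log2 2.59 ± 0.24, adjusted p = 0.000127, edgeR), while the factors Klf13 and Klf6 were not called. Nr4a1, which is in both target lists, had 5083, 4340 and 4047 CPM in pMo, 2307, 1535 and 1927 CPM in intMo, and 233, 260.5 and 201 CPM in cMo. Nr4a1 is also in the list of patrolling monocyte markers. The order of Nr4a1 was pMo, intMo, cMo, and Klf2 and Cebpb were lowest in intMo. Whether the factors act on these targets in these cells was not tested.

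In pMo against intMo the KLF targets that rose were Nr4a1 (log2 1.22 ± 0.18, adjusted p = 0.00598, edgeR) and Thbd, the anticoagulant receptor thrombomodulin, with 9 not called. Of all genes 4.99% were called in this comparison. The paired fit, which called 2589 genes in place of 701, called 4 of the KLF targets higher, Ccl5 and Tgfbr1 added, and 2 lower. Between intMo and cMo, 5 of the 11 rose in intMo and 3 fell (median log2 0.60), where 24.4% of all genes were called. Thbd had 46.3, 38.7 and 37.2 CPM in pMo, 15.9, 16.0 and 15.5 CPM in intMo, and 21.8, 24.2 and 24.7 CPM in cMo. As for Klf2, all intMo libraries lay below and all pMo libraries above those of cMo. Thbd is named as 1 of the 2 genes most like Cebpb over these libraries (r = 0.973), so this likeness was fixed by that choice. Thbd rose in pMo against intMo (log2 1.37 ± 0.13, adjusted p = 0.000958, edgeR) and against cMo (log2 0.79 ± 0.13, adjusted p = 0.00208, edgeR), and fell in intMo against cMo (log2 -0.58 ± 0.13, adjusted p = 0.0131, edgeR).

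**Figure D5:**
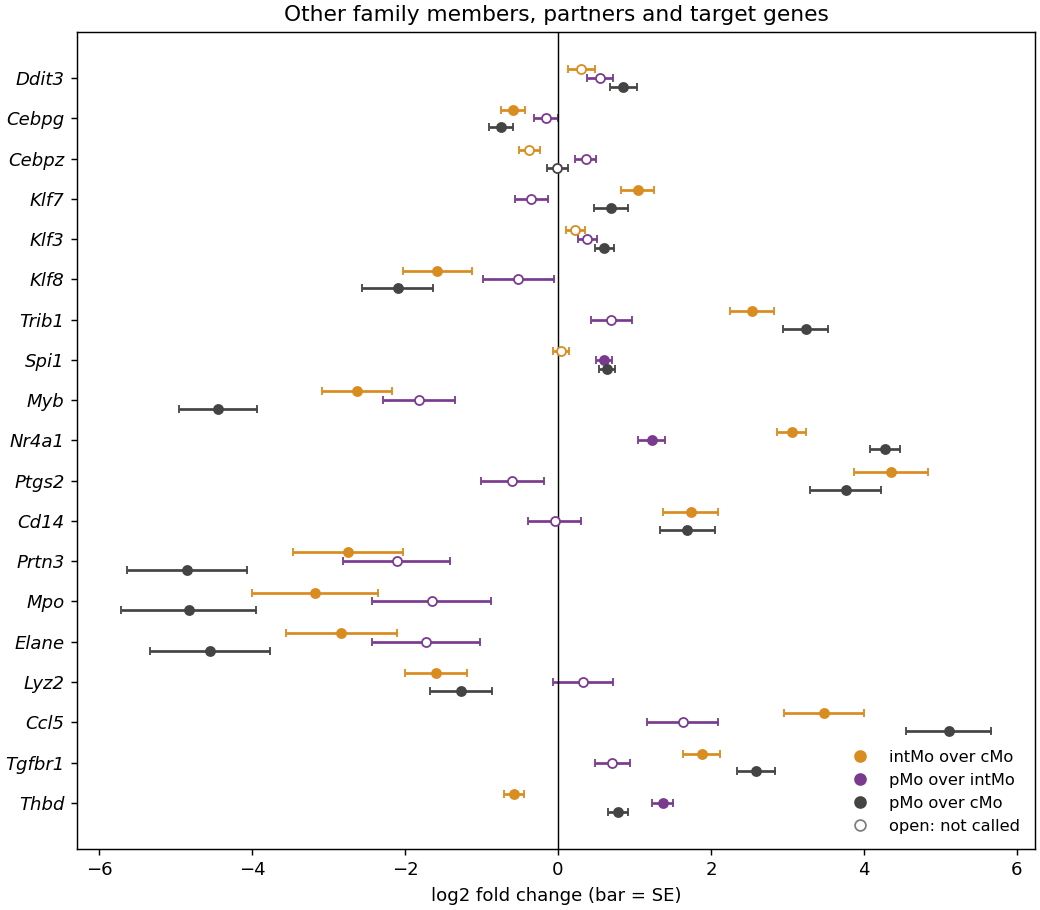
Log2 fold change (bar, SE) of the family members, partners and target genes described in the text, in the 3 comparisons, filled where the edgeR adjusted p was under 0.05. Thbd lies below 0 for intMo over cMo and above 0 for the other comparisons, as Klf2 and Cebpb do. It was named for its likeness to Cebpb in these libraries. Trib2 is left out because cMo had 0 counts.

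For each factor, the 2 genes most alike over the 9 libraries were taken from 7263 protein-coding genes whose mean level reached 20 CPM, by Pearson correlation of log2 CPM. Those of Cebpb were Ubp1 (r = 0.987), a transcription factor gene, and Thbd (r = 0.973), and those of Klf2 were Rin2 (r = 0.983), a Rab5 regulator, and again Ubp1 (r = 0.974). Klf4 was followed most closely by Cog3, a Golgi tethering subunit (r = 0.956), and Fam129b (r = 0.954). For Cebpd these were Ap4m1, an adaptor subunit (r = 0.991), and Rmnd5b (r = 0.983), and for Cebpa they were Fbxo31 (r = 0.985) and Dvl2 (r = 0.977). Klf13 was closest to Notch2, a Notch receptor gene (r = 0.972), and Diaph1, an actin nucleator (r = 0.968), and Klf6 to Mknk1, a kinase of translation control (r = 0.971), and Slc17a5, a lysosomal sialic acid transporter (r = 0.968). These values describe 9 libraries of 3 subsets and share those libraries.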

How the data were processed

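RNAzol was used for RNA, and the NEBNext Ultra II stranded mRNA kit for libraries, per the labels' protocols. The authors deposited a table of estimated counts per gene and library, from kallisto 0.46.1 and mm10 per the submitters' processing notes. The sources used here give neither the annotation nor the step from transcripts to genes nor the strand setting. Of 46517 gene IDs, 46005 matched a GENCODE M21 symbol when the version suffix was ignored, and 27555 had the same version. Estimated counts were rounded. After filterByExpr and TMM scaling, all 9 libraries were fitted together by subset in R 4.3.3 with the quasi-likelihood test of edgeR 4.0.16, with robust estimates. Calls used a threshold of 0.05 on p-values adjusted after Benjamini and Hochberg across the 14059 genes that passed the filter. Log2 CPM used a prior count of 2.

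The 8 genes, the lists and the tests were chosen with earlier results of these data known. Named genes of a list are up to 3 of its largest called changes per direction in pMo against cMo and its most abundant member, with the 2 genes most like each factor. A gene that this rule names is not reported here. Floors cover counting error only, since without molecular identifiers several reads can come from 1 molecule. Deviations from the subset means correlated at 0.588, 0.3 and 0.274 between pMo and intMo libraries of the same number, all over 0.1, the limit used to take numbers as pairs. Libraries 1 and 2 of these subsets were as alike across numbers (0.403 for intMo 1 with pMo 2 and 0.279 for intMo 2 with pMo 1), so the check sets library 0 apart from the others and does not tell number 1 from 2. For pairs with cMo these correlations ran from -0.143 to 0.23 and were not all over 0.1. The alternatives were RLE and upper quartile scaling, other filters, DESeq2 1.42.0, a replicate block, leaving out each library, libraries 1 and 2 alone, and fits to the compared subsets. The paired fit to pMo and intMo was added after the data were seen. The scripts were tested on simulated data in which a small part of the 14059 genes, drawn at any level, had known changes. Of simulated log2 changes of 1 in either direction 28% to 34% were called over the 3 comparisons, and of changes of 2 it was 70% to 76%. The simulation gave 111 to 113 calls per comparison, fewer than the data, so these rates need not hold for the 8 factors. A gene that was not called can still differ.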

Additional observations from a re-analysis of the deposited data

How the results depend on the processing

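Of the 11 called results on the 8 factors, 7 stayed past the threshold under each of the 17 or 18 other settings and 4 lost the call under some: Cebpb in intMo against cMo, Cebpd and Klf4 in pMo against intMo, and Klf2 in pMo against cMo. None of the 11 changed direction. With 1 library left out, the number of factors called was 2 to 4 in pMo against intMo, 3 to 4 in intMo against cMo and 2 to 3 in pMo against cMo, and the number of genes called was 221 to 1107, 2337 to 3284 and 3138 to 4962 in the same order. In pMo against intMo the reported count of 701 genes compares with 1417 by DESeq2, 2424 with libraries 1 and 2 alone and 2589 with the 6 libraries and a replicate block. In intMo against cMo a fit to the 6 intMo and cMo libraries called 2213 genes in place of 3433. With libraries 1 and 2 alone, 5 factors were called in pMo against cMo, where 5349 genes were called in place of 4650. These 5 included Cebpe, as higher, and did not include Klf2. In intMo against cMo that setting called 6 factors, where 3936 genes were called in place of 3433. The replicate block over all 9 libraries, whose numbers did not pair cMo with the others, called 836 genes in pMo against intMo. It called Cebpa lower in intMo against cMo (log2 -0.73, adjusted p = 0.019, edgeR) and in pMo against cMo (log2 -0.62, adjusted p = 0.0234, edgeR), ended the call of Cebpb in intMo against cMo (edgeR adjusted p = 0.0668) and changed no other call of the 8 factors. Upper quartile scaling (edgeR adjusted p = 0.0699) and both other filters (0.0606 each) ended that Cebpb call too.

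Directions changed only for results that were not called. With 1 library left out, the log2 change of Cebpe was -1.29 to 0.76 in intMo against cMo and -1.72 to 0.32 in pMo against cMo, above 0 only without cMo 0, and it was 1.24 and 0.65 with libraries 1 and 2 alone. That of Cebpa in pMo against intMo was -0.15 to 0.37, below 0 without intMo 1 or pMo 0. That of Cebpz in pMo against cMo was -0.094 to 0.067 and that of Cd14 in pMo against intMo -0.12 to 0.065, with 0.015 and 0.080 for these genes with libraries 1 and 2 alone. The cause of these changes was not tested. Of 40 called results on related genes, 30 held under each setting. Leaving out a library leaves 2 in its subset, which are then taken to vary like the others. Depth limits Trib2, which had 0 counts in cMo.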
